A study of Mus musculus with 12 samples.

Results

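The 7 genes described here carry bile acids through the enterocyte of the distal small intestine or answer to them. *Slc10a2* (ASBT) takes bile acids up from the gut lumen, *Fabp6* binds them in the cytosol, and *Slc51a* with *Slc51b* (the OSTα and OSTβ chains) exports them at the basolateral side. *Nr1h4* encodes FXR, the nuclear receptor for bile acids, and *Nr0b2* (SHP, a corepressor) and *Fgf15* (the hormone that signals to the liver) are among its best known targets. The genes were chosen by name, 7 of the 34245 rows of the count table, and each name has 1 row.

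Libraries came from C57BL/6 male mice that carry the *Lgr5*-EGFP-IRES-CreERT2 knock-in, at about 8 months (young) and 27 months (aged), with no other treatment in any group. Intestinal stem cells (ISC) were sorted from small intestinal crypts as cells with high EGFP, which *Lgr5* drives, and adult enterocytes (AE) from villi as cells with high Epcam and neither CD45 nor CD31. Each of the 4 groups, young ISC, aged ISC, young AE and aged AE, has 3 libraries, and a library is named here by its group and the number in its code (1, 2 and 3 in young, 1, 3 and 5 in aged mice). The sources used here do not say from which stretch of the small intestine the cells were taken, beyond naming the small intestine.

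Bile acids are reclaimed mainly in the ileum. There the apical carrier, the cytosolic binding protein and the basolateral exporter act in sequence, and bile acids that reach the nucleus activate FXR, which pairs with RXR on DNA. FXR raises FGF15, and the hormone lowers bile acid synthesis in hepatocytes through the receptor FGFR4 and its partner β-Klotho. Since the ileum is known for high *Slc10a2*, *Fabp6* and *Fgf15*, these 3 genes also mark the distal part of the small intestine.

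Totals were between 11893817 and 26796461 counts in 11 libraries, and young AE library 3 held 110794420. For 8 of 12 samples, the title joins a code of one group to words for another, so columns were assigned to groups by their own names. The markers went with those names: *Lgr5* was at 79.7 to 146 CPM (counts-per-million of the TMM-scaled library size) in the ISC and 0.550 to 4.72 CPM in the AE libraries, and *Sis* (sucrase-isomaltase) at 95.2 to 692 CPM in ISC and 4179 to 8545 CPM in AE. A summed list of 20 enterocyte markers was at 2353 to 11889 CPM in ISC, so that enterocyte transcripts were also read in ISC libraries, most in young ISC library 3 and least in aged ISC library 1. Summed goblet cell markers were at 28160.5 to 57107.7 CPM in AE, against 1398.4 to 2247.3 CPM in ISC. Summed enteroendocrine markers were at 3501 to 13347 CPM in AE, against 255 to 880 CPM in ISC. Transcripts of other villus cells were thus also read in AE libraries, and their part in the AE levels was not tested. Values at 3 counts or fewer were taken as being at the limit of detection, which lies between 0.0359 and 0.327 CPM depending on the library and covers counting error only.

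The regions upstream of *Fabp6*, *Slc51a* and *Slc51b* are shown because these are the abundant members and because the inverted repeat of AGGTCA is the textbook binding sequence of FXR with RXR. They are RefSeq sequences on GRCm38.p6, read 5′ to 3′ on the minus strand, on which all 3 genes lie, and end before the first annotated base of the gene, which for *Slc51b* lies upstream of the RefSeq start that positions are counted from. RefSeq promoter windows were matched for 6 of the 7 genes, all but *Fgf15*. Capitals mark matches to the inverted repeat in *Fabp6*, and matches to a single AGGTCA or its reverse complement TGACCT in the others.
*Fabp6* chr11:43601563-43601812: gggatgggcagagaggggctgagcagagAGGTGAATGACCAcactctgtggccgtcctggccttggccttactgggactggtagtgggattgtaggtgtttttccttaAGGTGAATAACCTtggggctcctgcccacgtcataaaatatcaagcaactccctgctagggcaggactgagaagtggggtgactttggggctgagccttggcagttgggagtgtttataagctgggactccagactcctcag
*Slc51a* chr16:32487880-32488129: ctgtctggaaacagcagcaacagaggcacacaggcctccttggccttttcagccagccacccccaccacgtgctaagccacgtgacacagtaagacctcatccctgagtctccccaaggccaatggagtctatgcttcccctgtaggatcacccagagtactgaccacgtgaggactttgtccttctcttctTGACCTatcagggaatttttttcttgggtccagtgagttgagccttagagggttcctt
*Slc51b* chr9:65422956-65423023: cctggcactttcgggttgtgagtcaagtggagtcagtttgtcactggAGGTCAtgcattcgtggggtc
The repeat searched for was AGGTCA followed by TGACCT with 1 base between them, and it reads the same on both strands. No exact copy was found in the windows of the 6 genes. With up to 2 mismatches, an allowance chosen after the exact search, *Fabp6* held 2 matches, AGGTGAATGACCA from 222 to 210 and AGGTGAATAACCT from 142 to 130 bases before the RefSeq start. Of 32851 RefSeq windows of the same length, 0.959% held such a match. A single AGGTCA on either strand was found for *Slc51a* (58 to 53 bases before the start), *Slc51b* (203 to 198) and *Nr1h4* (214 to 209), where 14% of all windows hold one. The *Nr1h4* window lies inside the counted span of the gene, so the RefSeq start used for it is an internal one. These are matches of letters, and binding was not measured.

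The first question is how far these genes separate the AE from the ISC libraries. In young mice 6 of the 7 members were called higher in AE than in ISC at an FDR under 0.05 (edgeR's quasi-likelihood test, adjusted by Benjamini-Hochberg over all genes tested), where 27.7% of 16681 genes were called higher. In aged mice the same 6 members were called higher, where 30% of 15855 genes were. The median log2 fold change over the 7 members was 3.08 in young and 4.72 in aged mice, beside 0.15 and -0.13 over all genes tested. The exception at both ages was *Nr0b2*.

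**Figure D1:**
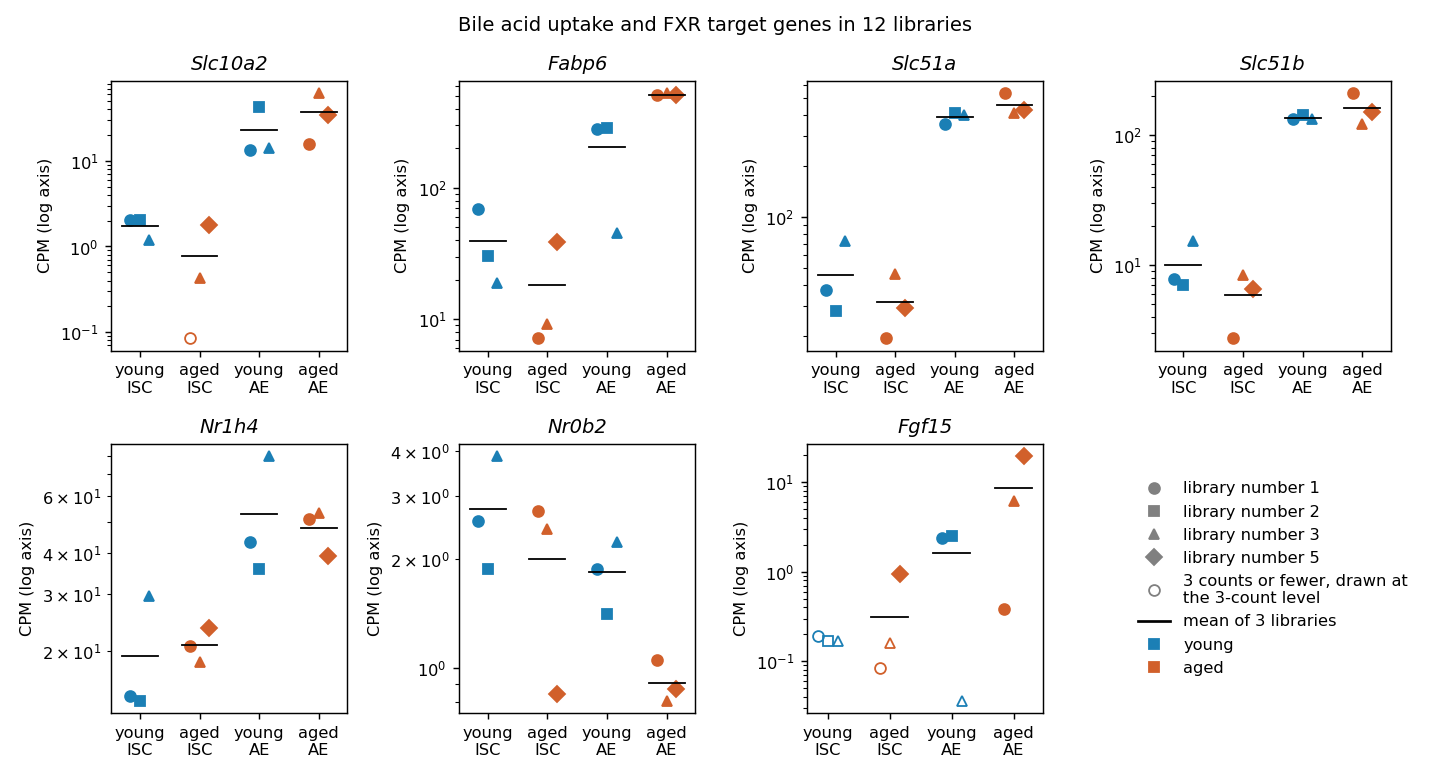
Level of each member in every library, in CPM on a log axis, by group. Points are libraries (shape gives the library number), black lines are the means of 3 libraries, and open points had 3 counts or fewer and are drawn at the 3-count level. *Slc10a2*, *Slc51a*, *Slc51b* and *Nr1h4* lie higher in all AE than in all ISC libraries of the same age, and *Fabp6* and *Fgf15* of young AE library 3 lie far below those of the other 2 young AE libraries.

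*Slc10a2* (chromosome 8 of GRCm38, 5083219 to 5105351) brings bile acids into the cell and had the lowest level per length of the transport genes. Its levels were 2.04, 2.04 and 1.18 CPM in young ISC libraries 1, 2 and 3, and 13.3, 42.4 and 14.0 CPM in the young AE libraries of these numbers. In aged ISC libraries 1, 3 and 5 they were 0.0842, 0.432 and 1.78 CPM, and in aged AE 15.9, 61.6 and 34.7 CPM. Every AE library lay above every ISC library. AE exceeded ISC by a log2 fold change of 3.72 in young (standard error 0.53, edgeR FDR = 0.000824) and 5.63 in aged mice (standard error 0.80, edgeR FDR = 0.000169). The aged ISC libraries spanned a factor of 21.1, with library 1 at the limit of detection.

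*Fabp6* (chromosome 11, 43596049 to 43601540), the ileal bile acid binding protein, was the most abundant member per length. Levels were 69.0, 30.2 and 19.0 CPM in ISC libraries 1, 2 and 3 of young mice, against 280, 286 and 45.5 CPM in AE. They were 7.15, 9.23 and 38.7 CPM in aged ISC and 508, 524 and 506 CPM in aged AE libraries 1, 3 and 5. The aged AE libraries were within a factor of 1.04 of each other, whereas young AE library 3 lay 6.29-fold below the highest of its group and below young ISC library 1, so the young groups overlapped. *Fabp6* was higher in AE by 2.37 on the log2 scale in young (standard error 0.71, edgeR FDR = 0.0221) and by 4.73 in aged mice (standard error 0.60, edgeR FDR = 8.17e-05). The young call did not pass without young ISC library 2 (edgeR FDR = 0.076), young ISC library 3 (0.0619) or young AE library 1 (0.0732), while without young AE library 3 the fold change was 2.78 (0.00103).

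The exporter is a pair of chains that need each other at the membrane, and both genes rose from ISC to AE. Young AE libraries spanned a factor of 1.15 for *Slc51a* and 1.08 for *Slc51b*, and aged AE libraries 1.30 and 1.71. *Slc51a* (chromosome 16, 32475522 to 32487879) was at 37.3, 28.2 and 72.0 CPM in ISC of young mice, against 356, 408 and 399 CPM in AE. In aged libraries it was at 19.4, 46.3 and 29.3 CPM in ISC and 536, 412 and 428 CPM in AE. *Slc51b* (chromosome 9, 65412714 to 65422955) was at 7.77, 7.04 and 15.3 CPM in ISC of young mice, against 134, 143 and 133 CPM in AE, and at 2.72, 8.37 and 6.53 CPM in aged ISC and 211, 123 and 150 CPM in aged AE. For both genes all AE libraries lay far above all ISC libraries. The log2 fold change of *Slc51a* was 3.08 in young (standard error 0.35, edgeR FDR = 0.000343) and 3.78 in aged mice (standard error 0.32, edgeR FDR = 5.62e-06). That of *Slc51b* was 3.77 in young (standard error 0.31, edgeR FDR = 0.000137) and 4.72 in aged mice (standard error 0.40, edgeR FDR = 5.68e-06). An exon of *Slc51b* overlaps one of *Rasl12* on the other strand, which was at 0 to 2.28 CPM, and whether the counting used strand is not given in the sources used here.

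Relative to *Slc51b*, *Slc51a* was lower in AE than in ISC. On the RPKM scale (CPM per kilobase of the merged exons inside the counted span), *Slc51a* was 1.30 to 2.31 times *Slc51b* in the 6 ISC libraries and 0.827 to 1.09 times in the 6 AE libraries. The log2 ratio was 0.55 ± 0.14 (SD, n = 3) in young ISC and -0.12 ± 0.087 in young AE, and 0.87 ± 0.33 in aged ISC and -0.086 ± 0.20 in aged AE. The 3 AE libraries lay below the 3 ISC libraries at each age (two-sided exact permutation P = 0.1, which is as low as 3 against 3 libraries can give). The size of the ratio depends on the length used for *Slc51a*, of which the count table covers 2180 of 3198 exonic bases in GENCODE M21. With the whole length it was 0.889 to 1.58 in ISC and 0.564 to 0.743 in AE, so neither cell type can be called the one at parity, while the difference between them does not depend on length.

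The receptor gene was higher in AE by a smaller log2 fold change than each transport gene. *Nr1h4* (chromosome 10, 89454234 to 89533585) was at 14.6, 14.0 and 29.5 CPM in ISC of young mice, against 43.4, 35.8 and 79.7 CPM in AE, and at 20.7, 18.5 and 23.6 CPM in aged ISC and 50.9, 53.3 and 39.2 CPM in aged AE. AE and ISC libraries of an age did not overlap, and in the young groups library 3 was the highest in both cell types. Its log2 fold change was 1.45 in young (standard error 0.39, edgeR FDR = 0.0138) and 1.12 in aged mice (standard error 0.18, edgeR FDR = 0.000342). The young call did not pass without young ISC library 1 (edgeR FDR = 0.0585) or young ISC library 2 (0.0532), and without young AE library 3 the fold change was 0.96.

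Of the targets, *Nr0b2* was scarce and showed no call in either comparison. *Nr0b2* (chromosome 4, 133553376 to 133556536) was at 2.55, 1.87 and 3.87 CPM in ISC of young mice, against 1.88, 1.41 and 2.24 CPM in AE, and at 2.72, 2.43 and 0.844 CPM in aged ISC and 1.05, 0.807 and 0.873 CPM in aged AE. AE and ISC libraries overlapped at both ages, in aged mice through ISC library 5 alone. Relative to ISC, AE had a log2 fold change of -0.57 in young (95% interval -1.52 to 0.38, edgeR FDR = 0.272) and -1.21 in aged mice (95% interval -2.40 to -0.02, edgeR FDR = 0.0692). Without aged ISC library 5 it was -1.58 and passed (edgeR FDR = 0.0111).

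*Fgf15* (chromosome 7, 144896531 to 144900953) was near the limit of detection in ISC and uneven in AE. Its counts were 0, 1 and 0 in young ISC and 29, 30 and 2 in young AE libraries 1, 2 and 3, the last in the deepest library. They were 0, 0 and 21 in aged ISC and 4, 68 and 180 in aged AE libraries 1, 3 and 5, which is 0.381, 6.09 and 19.6 CPM in the latter group. Libraries of a group thus differed by up to 104-fold in young and 51.6-fold in aged AE, and aged ISC library 5 lay above aged AE library 1. The fitted log2 fold change was 6.01 in young (standard error 1.89, edgeR FDR = 0.0273) and 4.77 in aged mice (standard error 1.38, edgeR FDR = 0.0125). The young value rests on 1 count over the ISC libraries, and the aged value on aged ISC library 5. Without that library the aged value was 10.2, its size then resting on the prior count, as ISC was at 0. From the summed counts the ratio of AE to ISC was 28.9 (exact 95% counting interval 4.99 to 1160) in young and 29.8 (19.1 to 49.1) in aged mice, scaled by summed library sizes, and these intervals leave out the spread between libraries. Without young AE library 3, which holds 2 of the 61 counts and most of the summed library size, the young ratio was 124 (21.4 to 4982). The young call passed with the loss of young AE library 3 only, at edgeR FDR from 0.0509 to 0.0916 without any of the other 5 (young ISC libraries 1, 2 and 3, young AE libraries 1 and 2). The aged call did not pass without aged AE library 5 (edgeR FDR = 0.074) or under DESeq2 (FDR = 0.0875). Exons of *Gm26793* and *Gm39119* overlap *Fgf15* on the other strand, and both were at 0 to 0.327 CPM.

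**Figure D2:**
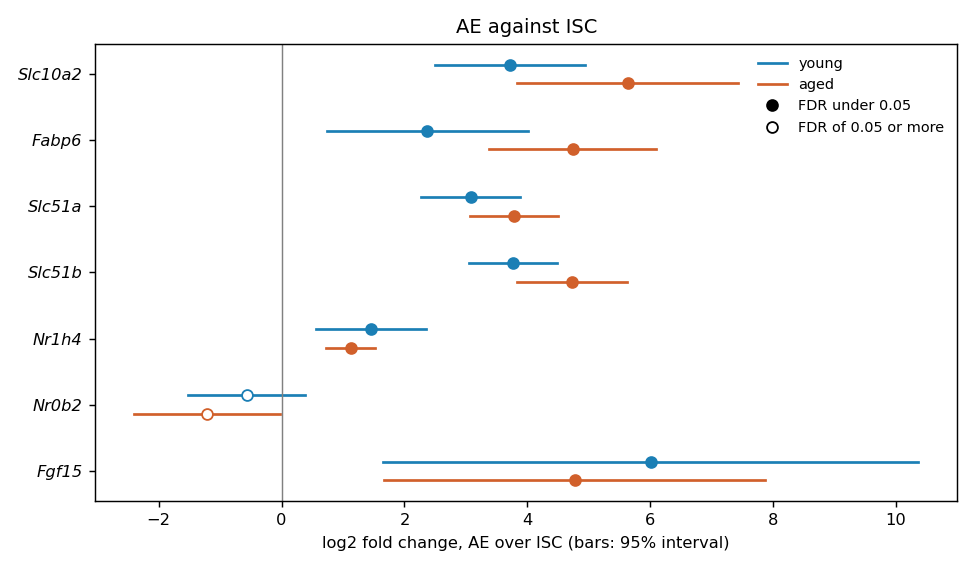
Log2 ratio of AE to ISC for each member in young and aged mice, with 95% intervals from edgeR's quasi-likelihood fit. Filled points passed an FDR of 0.05, as 6 of 7 members did at each age, and the intervals of *Fgf15* are the widest.

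With 1 library left out, 3 to 6 members were called in young mice, 3 of them without young ISC library 2, and 5 to 7 in aged mice. *Slc10a2*, *Slc51a* and *Slc51b* passed in every such fit at both ages. In young mice 4 members (*Slc10a2*, *Slc51a*, *Slc51b*, *Nr1h4*) and in aged mice 5 (the same with *Fabp6*) had all AE libraries above all ISC libraries, which held for 32.3% and 33.4% of genes tested. Fewer cells of a type and less RNA per cell cannot be told apart in such sorted bulk samples. Summed enterocyte markers moved with all 6 called members, from 2353 to 11889 CPM in ISC to 83661 to 134822 CPM in AE, and their part in the result was not tested.

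The order of levels per length was not the same in the 2 cell types. In young AE the mean RPKM was 426 for *Fabp6*, 193 for *Slc51b*, 178 for *Slc51a*, 23.0 for *Nr1h4*, 5.59 for *Slc10a2*, 1.63 for *Nr0b2* and 0.532 for *Fgf15*. In aged AE the first 5 kept this order, with 1070 RPKM for *Fabp6*, and *Fgf15* (2.85 RPKM) came before *Nr0b2* (0.803 RPKM). The libraries of *Fabp6* and *Slc51b* overlapped in young AE, as did those of *Slc51b* and *Slc51a*, of *Slc10a2* and *Fgf15* and of *Fgf15* and *Nr0b2* in aged AE, so these neighbours did not differ beyond their spread. In young AE the lowest *Slc51b* library (187.5 RPKM) lay just above the highest of *Slc51a* (187.1 RPKM), and the place of this pair rests on the length taken for *Slc51a*. The other neighbours in AE did not overlap. In young ISC *Fabp6* led at 82.2 RPKM, *Slc51a* (21.0) overlapped *Slc51b* (14.1) and *Slc51b* overlapped *Nr1h4* (8.42), and *Nr0b2* (2.44 RPKM) lay above *Slc10a2* (0.422 RPKM) in every library. In aged ISC *Fabp6* was at 38.4, *Slc51a* at 14.5, *Nr1h4* at 9.08, *Slc51b* at 8.28, *Nr0b2* at 1.77 and *Slc10a2* at 0.184 RPKM. The receptor mRNA thus overlapped *Slc51b* per length in ISC at both ages, and the apical carrier was far lower.

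The second question is what changed with age. No member was called in ISC or in AE, where 0% of 15552 and 0% of 16265 genes were called by edgeR's quasi-likelihood test. At an unadjusted P under 0.05 there were 695 genes in ISC, with no member among them, and 809 in AE, of which *Fabp6* was one. DESeq2 called 58 genes in ISC and 18 in AE, and no member was among these called genes. In ISC, 5 of the 7 members had negative log2 fold changes of aged over young, with a median of -0.53 over the members and 0.01 over all genes tested. In AE, 5 of 7 had positive ones, with a median of 0.26 over the members and -0.04 over all genes tested.

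In ISC the young and aged libraries overlapped for all 7 members, beside 8.86% of genes tested whose groups did not overlap. The log2 fold change was -1.21 for *Slc10a2* (95% interval -3.11 to 0.69), -1.09 for *Fabp6* (-2.61 to 0.44), -0.53 for *Slc51a* (-1.43 to 0.37) and -0.77 for *Slc51b* (-1.79 to 0.24), each at an edgeR FDR of 1. *Nr1h4* was at 0.12 (95% interval -0.54 to 0.77) and *Nr0b2* at -0.46 (-1.53 to 0.61). The intervals span changes of several fold for the transport genes. Aged ISC library 5 bore on the values for *Slc10a2* and *Fabp6*, which were -2.89 and -2.25 without it. *Fgf15* had 1 count over the young and 21 over the aged ISC libraries, all 21 in library 5, a ratio of 14.0 (exact 95% counting interval 2.25 to 579). That interval leaves out the spread between libraries. The fitted log2 fold change was 3.63, with an edgeR 95% interval of -1.20 to 8.45.

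**Figure D3:**
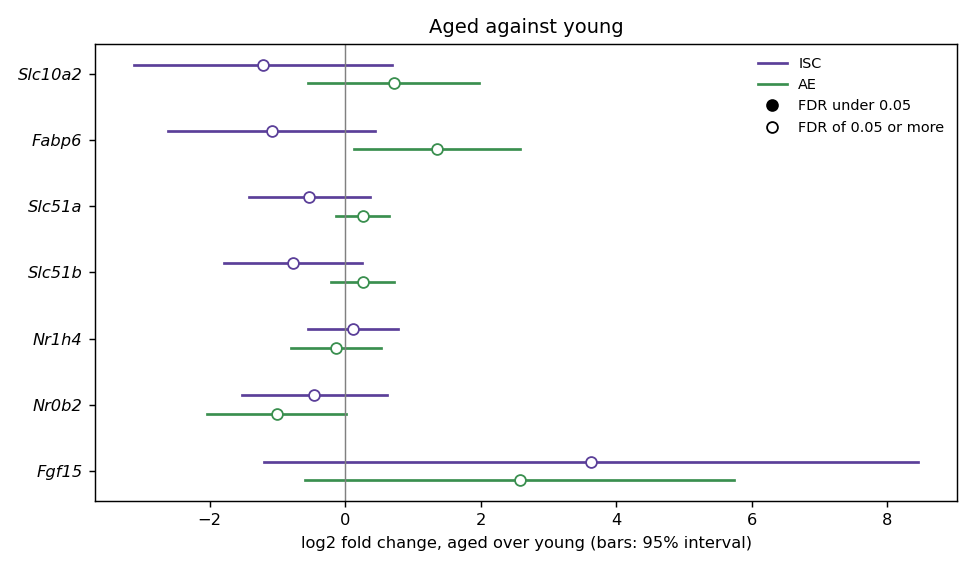
Log2 fold change of aged over young for each member in ISC and AE, with 95% intervals from edgeR's quasi-likelihood fit. Open points did not pass an FDR of 0.05, which held for all 7 members in both cell types.

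In AE, *Fabp6* was higher in all 3 aged than in all 3 young libraries, with a log2 fold change of 1.35 (95% interval 0.13 to 2.58, edgeR FDR = 0.833). Without young AE library 3 it was 0.88 (edgeR FDR = 0.184). *Slc51a* was also higher in every aged library, by 0.26 (95% interval -0.13 to 0.65), and *Nr0b2* was lower in every aged library, by a log2 fold change of -1.01 (95% interval -2.04 to 0.02, edgeR FDR = 0.833). The ages did not overlap for these 3 of 7 members, beside 10.9% of genes tested. *Nr0b2* had 11, 9 and 8 counts in aged AE libraries 1, 3 and 5, against 23, 17 and 187 in young AE libraries 1, 2 and 3. *Slc10a2* was at 0.71 (95% interval -0.55 to 1.97), *Slc51b* at 0.25 (-0.21 to 0.72) and *Nr1h4* at -0.14 (-0.80 to 0.52), all with overlapping libraries. *Nr1h4* was at 0.30 without young AE library 3. *Fgf15* was at 1.63 ± 1.39 CPM (SD, n = 3) in young and 8.70 ± 9.89 CPM in aged AE. Aged AE library 1 lay below young AE libraries 1 and 2, and the interval of the log2 fold change was -0.59 to 5.74. The ratio of summed counts, 252 over 61, scaled by the summed library sizes to which young AE library 3 adds most, was 14.5 (exact 95% counting interval 10.9 to 19.5). Without that library it was 3.37 (2.53 to 4.55), and the fitted log2 fold change of 2.57 became 1.86. Both counting intervals leave out the spread between libraries.

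The difference of the age effects, AE minus ISC, was tested over all 12 libraries, and 0 of 7 members were called, where 0.00575% of 17377 genes were. The value was 1.96 for *Slc10a2*, 2.43 for *Fabp6*, 0.78 for *Slc51a* and 1.03 for *Slc51b* on the log2 scale, and -0.26 for *Nr1h4*, -0.57 for *Nr0b2* and -1.06 for *Fgf15*. *Fabp6* had the only interval without 0 (95% interval 0.29 to 4.57, edgeR FDR = 1). With the library code as a replicate block its difference was 3.06 (standard error 0.65, edgeR FDR = 0.169), and this fit called 21 genes in place of 1, none of them a member. Summed enterocyte markers were at 83661 to 108906 CPM in young AE and 112580 to 134822 CPM in aged AE, and 20 of 20 had positive log2 fold changes with age in AE and 19 of 20 negative ones in ISC, without a call. Their part in the values of the transport genes was not tested.

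Within groups some members deviated together, and others in different libraries. Deviations of log2 CPM from the group mean were compared over the 12 libraries, which share 6 codes between ISC and AE and are not independent, so the coefficients are given as a description. The exporter chains *Slc51a* and *Slc51b* had r = 0.93 (Spearman's rho = 0.94), with 0.94 in the 6 ISC and 0.89 in the 6 AE libraries. *Fabp6* had r = 0.75 with *Fgf15* and 0.63 with *Slc10a2*, and -0.15 with *Slc51a* and 0.06 with *Slc51b*. *Slc10a2* had r = 0.65 with *Fgf15* and -0.83 with *Nr0b2*, the latter in ISC (-0.85) and AE (-0.94) alike. Without the 2 libraries farthest from the median of the first gene, r was 0.89 for *Slc51a* with *Slc51b*, 0.52 for *Fabp6* with *Fgf15*, 0.39 for *Slc10a2* with *Fabp6* and -0.62 for *Slc10a2* with *Nr0b2*. Counts of *Fgf15* were 0 or 1 in every ISC library but aged library 5, and 2 in young AE library 3. Aged ISC libraries 1 and 3, both with 0 counts, had deviations of -1.71 and -0.77, a gap set by library size alone. Coefficients with *Fgf15*, here and below, thus rest in part on library size and are poorly determined.

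**Figure D4:**
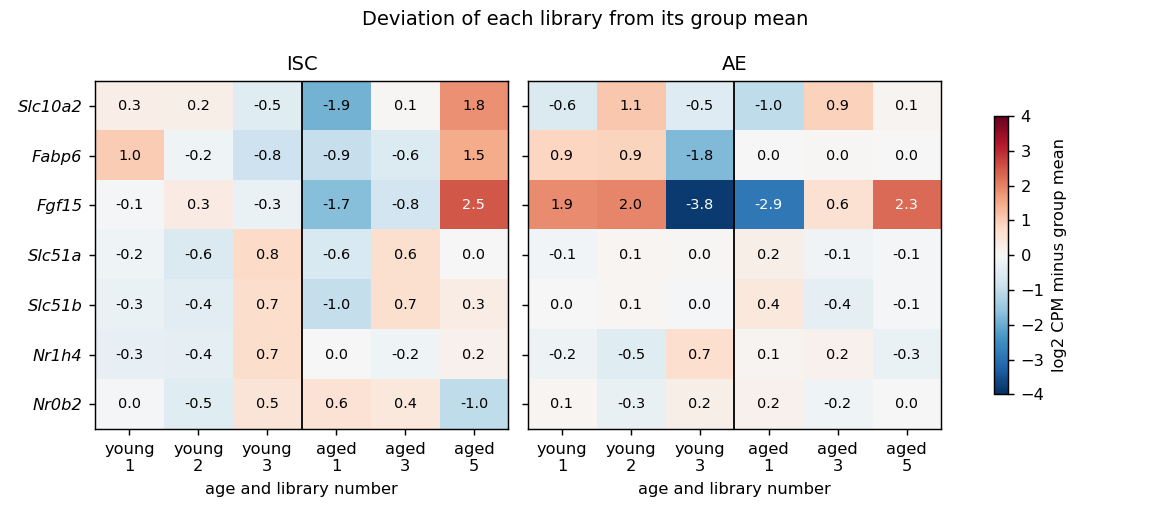
Deviation of each library from the mean log2 CPM of its group for the 7 members, in ISC and AE, with libraries ordered by age and number. *Slc10a2*, *Fabp6* and *Fgf15* are above their group mean together in aged ISC library 5, *Fabp6* and *Fgf15* are at their lowest in young AE library 3, and *Slc51a* and *Slc51b* have r = 0.93 over the 12 libraries.

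Over ISC and AE libraries pooled, the exporter chains had higher coefficients with enterocyte markers than the 3 ileal genes had. Over the 12 libraries the deviations of the summed enterocyte list had r = 0.92 with *Slc51a* and 0.84 with *Slc51b*, against 0.26 with *Slc10a2*, -0.22 with *Fabp6* and 0.004 with *Fgf15*. They were not computed for each cell type alone. On the log scale the enterocyte sum varied more in ISC (2353 to 11889 CPM) than in AE (83661 to 134822 CPM). In aged AE, library 1 had the lowest enterocyte sum (112580 CPM) but the highest *Slc51a* (536 CPM) and *Slc51b* (211 CPM). Library 3 there had the highest sum but the lowest *Slc51a* (412 CPM) and *Slc51b* (123 CPM). In young AE, library 1 had the lowest sum (83661 CPM) and the lowest *Slc51a* (356 CPM). Young AE library 3 had the highest sum (108906 CPM) and the lowest *Slc51b* (133 CPM). The pooled coefficients thus do not describe the AE libraries alone. A list of 8 genes of the proximal small intestine, among them *Gata4*, *Lct* and *Fabp1*, had r = -0.63 with *Fabp6*, -0.40 with *Fgf15*, -0.11 with *Slc10a2* and 0.80 with *Slc51a*. These coefficients rest largely on *Fabp1*, the most abundant gene of the list, a fatty acid binding protein. Without it the other 7 genes had r = -0.26 with *Fabp6*, 0.11 with *Fgf15*, 0.41 with *Slc10a2* and 0.47 with *Slc51a*. *Fabp1* was at 9211 CPM in young AE library 3, against 2757 and 3047 CPM in the other 2 young AE libraries, and at 1506 CPM in young ISC library 3, against 141 and 160 CPM. The other 7 genes summed to 4305 CPM in that AE library, against 3238 and 4193 CPM, and to 510 CPM in ISC, against 464 and 424 CPM. Library 3 was thus the lowest of the young for *Fabp6* and the highest for *Fabp1* in both cell types, and *Lct* and *Fabp1* are also on the enterocyte list. Of other genes listed for the distal small intestine, *Cubn* was at 779.5 CPM in that AE library, against 332 and 403 CPM in the other 2, and *Osr2* at 82.1 against 77.1 and 69.2 CPM. *Amn* was there at 377 CPM, against 381 and 287 CPM, and *Clec2h* at 1602.4 against 1882 and 1570 CPM, so that none of these 4 was at its lowest in young AE library 3. Their sum had r = 0.14 with *Fabp6*, 0.24 with *Fgf15* and 0.30 with *Slc10a2*, against 0.61 with *Slc51a* and 0.62 with *Slc51b*, so the ileal members did not follow these distal genes more closely than the exporter chains did. The part of the sampled stretch of intestine in these values was not tested.

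The genes of most similar pattern were searched among 12629 genes with a mean of at least 1 CPM, by Pearson's r of the same deviations over 12 libraries. For *Fabp6* they were *Nos2* (r = 0.96), *Mtmr7* (0.96) and *Tead1* (0.95), for *Fgf15* *Gsn* (0.98), *Clca3a1* (0.95) and *Mboat1* (0.95), and for *Slc10a2* *Fbxo46* (0.94), *Edem3* (0.93) and *Prss41* (0.93). For *Slc51a* they were *Sult1b1* (0.97), *Dpep1* (0.97) and *Maob* (0.96), and for *Slc51b* *Exoc3l4* (0.97), *Cdkn2b* (0.96) and *Slc51a* itself (0.93). *Ddhd2* (0.95), *Slc6a3* (0.94) and *Pros1* (0.94) followed *Nr1h4*, and *Mxra7* (0.97), *Acer1* (0.94) and *Mgll* (0.94) followed *Nr0b2*. Without young AE library 3, 0 of the 3 genes remained for *Fabp6* and for *Fgf15*, 1 each for *Slc10a2*, *Nr1h4* and *Nr0b2*, and 2 each for *Slc51a* and *Slc51b*.

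Other genes that move bile acids and sterols were compared from a list of 10. In young mice 4 of the 7 tested were called higher in AE and 1 lower, and in aged mice 4 of 6 higher and 2 lower. Over all genes tested, 27.7% were called higher and 25.4% lower in young mice, and 30% and 34.1% in aged mice. The apical conjugate exporter *Abcc2* had a log2 fold change of 3.34 in young and 4.12 in aged mice, and the sterol transporter pair *Abcg5* and *Abcg8* had 3.36 and 3.01 in young and 3.74 and 3.32 in aged mice. *Abcc4* was lower in AE, at -1.34 and -1.91, and the organic anion carrier *Slco2b1* was called lower in aged mice (-1.15). The hepatocyte uptake carrier *Slc10a1* had 0 counts in every library.

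Of 14 nuclear receptors and regulators, 7 were called higher and 2 lower in AE of young mice, where 27.7% of all genes were higher and 25.4% lower. In aged mice 5 were called higher and 2 lower, where 30% of all genes were higher and 34.1% lower. The aged count of higher genes was near the share of all genes. *Rxra*, the partner of FXR, was at 105 ± 12.3 CPM (SD, n = 3) in ISC of young mice, against 237 ± 40.5 CPM in AE, and had a log2 fold change of 1.17 in young and 1.28 in aged mice. *Nr1h3* (LXRα) was at 1.43 and 1.59 and *Nr1i2* (PXR) at 1.41 and 1.43. *Ppara* was at 1.31 in young and 1.77 in aged mice. The bile acid membrane receptor *Gpbar1* had 0 counts in each library of young ISC but 8, 3 and 21 in young AE libraries 1, 2 and 3. These were 0.248 to 0.655 CPM, with library 2 at the limit of detection and library 3 the deepest. *Gpbar1* was called higher in young AE (edgeR FDR = 0.0187). In aged mice it was not (edgeR FDR = 0.0607), and the difference between the ages was not called. *Nr5a2* (LRH-1) was lower in AE at -0.88 and -1.26, and *Rxrb* at -0.51 and -0.83. *Hnf4a*, at -0.19 and -0.17, was not called.

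Among 8 further genes reported as intestinal FXR targets, 7 were tested, of which 2 were called higher and 1 lower in young and 3 higher and 1 lower in aged AE, where 27.7% of all genes were higher and 25.4% lower in young and 30% and 34.1% in aged mice. *Cyp3a11*, a drug and bile acid hydroxylase, had a log2 fold change of 4.52 in young and 7.24 in aged mice, and the cytokine gene *Il18* 2.83 and 2.85. *Ang* was called higher in aged mice (0.78), and *Car12*, a carbonic anhydrase, was lower in AE at -3.43 and -2.90. Of the hormone's axis, *Fgfr4* was lower in AE, at 22.2 ± 3.87 CPM in ISC of young mice, against 2.01 ± 1.36 CPM in AE, with a log2 fold change of -3.54 in young and -4.06 in aged mice. Its partner *Klb* went the other way, at 2.74 and 4.55, from counts of 6 or fewer in each ISC library. *Cyp27a1* was higher in AE at 2.72 and 2.94, and *Malrd1* (DIET1) at 1.56 and 1.61. *Baat*, which conjugates bile acids, was higher at 5.90 and 5.48. It had 3 counts or fewer in each ISC library, at the limit of detection, so the size of its change is poorly determined. The enzymes of hepatic bile acid synthesis *Cyp7a1*, *Cyp8b1* and *Cyp7b1* had 0 counts in all 12 libraries. With age, 0 genes of these 4 lists were called in either cell type, with list medians between -0.16 and 0.14.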

How the data were processed

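The authors trimmed adaptors with Trim Galore 0.4.4, mapped reads to GRCm38 with HISAT2 2.1.0 (tools and build as in the submitters' processing notes) and counted uniquely mapped reads in SeqMonk over the merged exons of each gene. The deposited values are raw counts, not normalized. The annotation release is not given in the sources used here. A further deposited table of the authors' own called genes, with log2 values and adjusted P-values, holds none of the 7 members and was not used. Columns were assigned to groups by the cell type and age in their names and were not joined to sample titles.

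The analysis ran in R 4.3.3. Each comparison kept genes with at least 10 counts in total over its libraries. TMM scaling and the quasi-likelihood test of edgeR 4.0.16 were applied to the groups compared, with Benjamini-Hochberg adjustment over all genes tested (FDR, threshold 0.05). AE was compared with ISC at each age, aged with young in each cell type, and the difference of age effects over 12 libraries. CPM use TMM-scaled library sizes, and RPKM divide CPM by the length of the merged GENCODE M21 exons inside the span the count table gives. The spans match for 6 of the 7 members, and that of *Slc51a* leaves out 1018 exonic bases. Deviations and patterns use log2 CPM with a prior count of 2. The test was checked on simulated data made from these libraries.

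Same-numbered ISC and AE libraries deviated together, with r from 0.227 to 0.435 over 12629 genes in 6 of 6 pairs, against -0.389 to 0.123 in 12 pairs of different numbers. Deviations are taken from each group's mean, so positive coefficients in same-numbered pairs pull the others toward negative values. The contrast between these ranges is thus partly built in. The number was taken to pair libraries, and a fit with it as a replicate block was run as an alternative. The study's methods give the ages of 3 mice per cohort for RNA sequencing and do not tie a mouse to a number, so P-values are read as measuring the spread between these libraries. Replicates differed by more than counting noise (chi-square over its degrees of freedom, 29.0 to 240).

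Alternatives were DESeq2 1.42.0, RLE and upper-quartile scaling, no filter beyond 1 count, filterByExpr, a fit on all 4 groups and leaving out each library. Another configuration of the quasi-likelihood test (legacy off, robust on) was added after seeing the data, as were the whole GENCODE length of *Slc51a*, the *Fgf15* count ratios without young AE library 3 and the proximal list without *Fabp1*. The members, the gene lists and the tests were chosen with earlier results of these data known. All 7 members are given in every library. Of each pathway list, up to 3 genes per direction with the largest change among those called were named, and further genes are named as background. Sequences and gene starts are RefSeq's.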

Additional observations from a re-analysis of the deposited data

How the results depend on the processing

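The 6 members called between AE and ISC at each age, and the 0 called by age or in its difference, came out within 1.5 times those counts under every alternative except leaving out single libraries. Without 1 library, 3 to 6 members were called in young and 5 to 7 in aged mice, and 0 in the other comparisons. *Fgf15* in young mice was not called by the fit on all 4 groups (FDR = 0.0561) or with legacy off and robust on (0.098), and filterByExpr left it untested there. With the replicate block, which pairs libraries by number, 6 members were called in young and in aged mice, the same as without pairing, and 0 for the difference of age effects. Without single libraries the age effect of *Nr1h4* lay between -0.071 and 0.56 in ISC and between -0.35 and 0.30 in AE, and its difference between -0.70 and 0.14, changing direction. The difference for *Fgf15* lay between -3.25 and 4.70, the latter without aged ISC library 5. The causes were not tested. DESeq2 called 58 genes by age in ISC, 18 in AE and 43 for the difference, where the main test called 0, 0 and 1. Upper-quartile scaling moved the median of all genes in young mice by -0.12, and 6 members were called. Depth limits *Fgf15* and *Slc10a2* in ISC and *Nr0b2* in both cell types, where counts are few.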
